A study of Mus musculus with 48 samples.

Results

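Chemokines and chemokine receptors were followed in 3 tissues of mice with or without hepatocyte angiotensinogen. The tissues were liver, brown fat (brown adipose tissue, BAT) and the white fat beside the epididymis (eWAT). Members were taken by gene symbol: every Ccl, Cxcl, Ccr or Cxcr gene with a number, plus Cx3cl1, Cx3cr1, Xcl1 and Xcr1. This gave 59 of the 56748 gene rows in the files. They comprised 23 CC ligands, 13 CXC ligands, 1 CX3C ligand, 1 XC ligand, 2 pseudogenes and 19 receptors. Of the 59 members, 37 passed the filter on low counts in liver, 37 in BAT and 42 in eWAT. A set of 32 passed in each of the 3 tissues and 15 passed in none of them. Every member had a read in at least 1 library.

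All mice were males and spent 12 weeks on the Western diet TD.88137, which holds 0.2% cholesterol and 21% milk fat. They were hepAGT+/+ mice, called WT here, or hepAGT-/- littermates, called KO, which lack angiotensinogen in hepatocytes. The labels do not name the Cre line or promoter behind the deletion. Mice lived either at 20 to 22 °C, which is room temperature (RT), or at 30 °C, which is thermoneutral for mice (TN), and each of the 12 combinations of tissue, genotype and housing held 4 libraries, which the labels call biological replicates. No group on another diet was analysed here, so every group shares the Western diet.

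Chemokines are small secreted proteins that steer leukocytes by binding membrane receptors coupled to inhibitory G proteins. Many are made on demand when NF-kB or interferon pathways are active in macrophages, stromal cells and endothelium, and a few, such as Cxcl12, are made steadily by stroma and vessels. In obese adipose tissue and liver, the Ccl2 and Ccr2 pair is known for bringing in monocytes that become macrophages. Thermoneutral housing removes the cold load that mice bear at room temperature, so that brown fat is driven less by sympathetic nerves.

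Library totals ran from 23.7 M to 43.7 M counts, and no pair of libraries held identical counts. Levels are given in counts-per-million (CPM), that is, scaled to library size. Agt, the targeted gene, fell in KO liver at both temperatures, from a mean of 368 to 167 CPM at RT and from 409 to 167 CPM at TN. The log2 changes were -1.14 (SE 0.18, adjusted p = 0.0096) and -1.29 (SE 0.18, adjusted p = 0.00113), with no overlap between genotypes at either temperature. Which part of the gene was deleted is not in the labels, so the remaining KO reads were not placed within it. Tissue labels matched the defining markers: hepatocyte transcripts summed to at least 52120 CPM in every liver library. Brown adipocyte transcripts summed to at least 2257 CPM in every BAT library, at most 13.7 CPM in eWAT and 32.1 to 207.5 CPM in liver. Some libraries carried transcripts of other tissues. Hepatocyte transcripts in BAT summed to 18.3 to 327 CPM in WT RT libraries and 110.5 to 897.5 CPM in WT TN libraries. In KO BAT they summed to 7.80 to 678 CPM at RT and to 2622, 33.8, 172 and 1532 CPM in the KO TN libraries 2, 3, 4 and 5. They ran from 646 to 6713 CPM in eWAT. Skeletal muscle transcripts reached 5923 CPM in BAT. Their BAT medians were 30.7 CPM in WT RT, 1944 CPM in WT TN, 574 CPM in KO RT and 410 CPM in KO TN. The part of these transcripts in the WT BAT changes was not tested. Epididymis transcripts reached 792 CPM in eWAT library WT RT 18.

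Upstream sequence is shown for 5 CXC ligands named in the BAT and liver results. The windows other than that of Cxcl12 all held a motif match, so they do not stand for the members as a whole. Cxcl16 and Ccl9, the ligands called in liver for genotype at TN, are not among them. Each window holds the 250 bases before the RefSeq start of the gene (GRCm38.p6), written 5′ to 3′ on the gene's own strand. Capitals mark a match to GGANNTTCC, an NF-kB-like motif (kB-like), or to GAAANNGAA, an interferon-response-like motif (ISRE-like). Both motifs were searched on both strands.
Cxcl1 (chr5:90890995-90891244, plus strand, kB-like match): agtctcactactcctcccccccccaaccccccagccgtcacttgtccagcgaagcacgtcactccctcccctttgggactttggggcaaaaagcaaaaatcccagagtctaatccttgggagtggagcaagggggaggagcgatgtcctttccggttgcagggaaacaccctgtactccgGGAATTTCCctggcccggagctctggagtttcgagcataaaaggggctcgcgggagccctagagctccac
Cxcl2 (chr5:90903649-90903898, plus strand, kB-like match): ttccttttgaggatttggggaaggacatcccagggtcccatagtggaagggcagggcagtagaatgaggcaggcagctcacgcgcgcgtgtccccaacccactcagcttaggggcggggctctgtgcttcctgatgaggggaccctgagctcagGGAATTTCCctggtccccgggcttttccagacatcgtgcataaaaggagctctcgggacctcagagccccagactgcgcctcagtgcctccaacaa
Cxcl10 (chr5:92348890-92349139, minus strand, ISRE-like match first, then kB-like match): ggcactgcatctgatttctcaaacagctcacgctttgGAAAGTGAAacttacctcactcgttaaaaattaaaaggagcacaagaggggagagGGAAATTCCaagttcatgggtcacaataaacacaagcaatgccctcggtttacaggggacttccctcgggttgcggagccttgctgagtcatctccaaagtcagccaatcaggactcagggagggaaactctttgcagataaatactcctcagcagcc
Cxcl9 (chr5:92328080-92328329, minus strand, ISRE-like match): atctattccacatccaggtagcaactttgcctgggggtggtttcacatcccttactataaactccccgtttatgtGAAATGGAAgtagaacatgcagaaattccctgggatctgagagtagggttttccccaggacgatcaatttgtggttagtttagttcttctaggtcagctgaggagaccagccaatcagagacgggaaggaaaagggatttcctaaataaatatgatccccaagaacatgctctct
Cxcl12 (chr6:117168285-117168534, plus strand, no match): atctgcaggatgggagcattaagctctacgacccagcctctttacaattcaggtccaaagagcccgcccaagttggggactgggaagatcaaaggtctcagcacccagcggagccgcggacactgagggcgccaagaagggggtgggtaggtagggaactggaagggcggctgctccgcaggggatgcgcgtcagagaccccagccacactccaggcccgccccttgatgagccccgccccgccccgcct
The kB-like match began 70 bases before the Cxcl1 start, 96 before the Cxcl2 start and 158 before the Cxcl10 start. The ISRE-like match began 213 bases before the Cxcl10 start and 175 before the Cxcl9 start. Among all 32851 promoter windows in the RefSeq table, 3.59% held a kB-like match and 7.13% an ISRE-like match. A window was given for 42 of the 59 members, of which 7 held the first motif and 8 the second. A match describes these letters only.

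The 3 tissues held different sets of chemokines. Levels of different genes are compared here in transcripts-per-million (TPM), which corrects for transcript length. Liver was led by Cxcl12, the ligand of Cxcr4 that retains haematopoietic and immune cells, with a median of 94.6 TPM over 16 libraries (range 60.8 to 121). Cxcl12 made up a median of 43.3% of all ligand TPM in liver, 9.87% in BAT and 3.77% in eWAT. Next in liver were Ccl9, a macrophage ligand of Ccr1, with a median of 31.8 TPM (13.9 to 67.5), and Cxcl1, the neutrophil attractant, with 19.6 TPM (4.11 to 31.5).

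BAT was led by Ccl11 (eotaxin, which draws eosinophils through Ccr3) with a median of 32.5 TPM, Cxcl14 with 29.4 TPM and Cxcl12 with 29.2 TPM. The ranges of these 3 overlapped, being 10.5 to 77.0, 19.5 to 66.4 and 7.14 to 48.01 TPM. eWAT held the highest ligand levels of the 3 tissues, led by Ccl6, a macrophage CC ligand, with a median of 212 TPM (93.7 to 514). Ccl11 followed with 121 TPM, Ccl8, a chromosomal neighbour of Ccl2, with 118 TPM, the lymphoid ligand Ccl21a with 90.2 TPM and Ccl9 with 83.8 TPM. The ranges of the first 3 overlapped. Ccr2, the monocyte receptor, was the receptor with the highest level in eWAT, with a median of 27.4 TPM (14.9 to 58.6), against 2.79 TPM (0.504 to 11.5) in BAT.

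**Figure D1:**
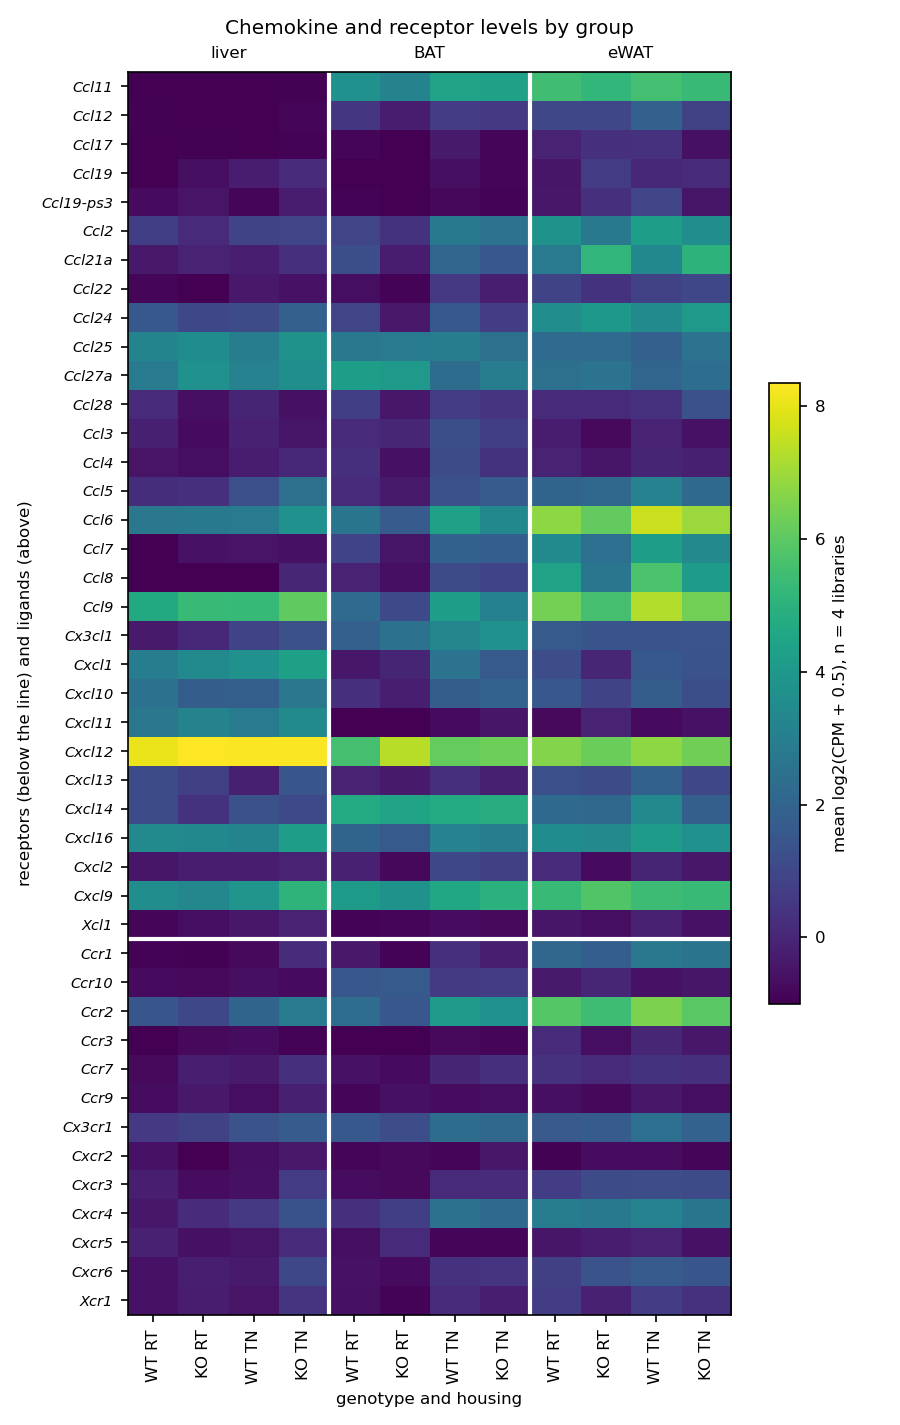
Mean level of the members in each of the 12 groups, as log2 of CPM plus 0.5 (colour scale), with members that passed the filter in at least 1 tissue in rows and groups of 4 libraries in columns. Cxcl12 is bright in every tissue, Ccl6, Ccl8 and Ccl9 are brightest in eWAT, and Cxcl11 is highest in liver.

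Tested across all 48 libraries with edgeR, most members differed between tissues, as did most genes. Of 45 members tested, 31 differed between BAT and eWAT, where 60.3% of all genes did. Of these, 6 were higher in BAT and 25 were lower, beside 29.2% and 31.1% of all genes. Against eWAT, liver was higher for 8 members and lower for 24 (73.8% of all genes called, 35.5% higher and 38.3% lower). Against BAT, liver was higher for 13 members and lower for 13 (68.6% of all genes called, 31.6% higher and 37.0% lower).

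The ligand with the largest BAT excess over eWAT was Cxcl14, at a log2 difference of 2.59 (SE 0.25), among members with a mean of at least 1 CPM. The receptor Ccr10, which binds Ccl27 and Ccl28, was higher in BAT by 2.89 (SE 0.61). Cntnap1, which overlaps Ccr10, had group means of 23.9 to 61.2 CPM in BAT, 7.31 to 9.03 CPM in eWAT and 1.96 to 16.0 CPM in liver, and its part in the Ccr10 values was not tested. Also higher in BAT were Cx3cl1, the membrane-bound ligand fractalkine, by 1.82, Ccl27a by 1.44 and Ccl25 by 0.97. Members lower in BAT were led by Ccl8, lower by a log2 difference of -4.44, the receptor Ccr1 by -3.79, Ccl6 by -3.48, Ccl9 by -3.42 and Ccl21a by -3.23. Liver exceeded eWAT for Cxcl11 (an interferon-induced Cxcr3 ligand, 5.87), Cxcl1 (3.52), Cxcl12 (2.27), Ccl25 (1.80) and Cxcl10 (1.60). Liver exceeded BAT for Cxcl11 (8.43), Cxcl1 (3.51), Ccl9 (2.87), Cxcl12 (1.99) and Cxcl10 (1.90). Ccl2 was detected in all 16 liver libraries, with a median of 2.73 TPM. Its chromosomal neighbours were detected less often in liver: Ccl11 in 1 of 16 libraries, Ccl8 in 2, Ccl12 in 3 and Ccl7 in 7. In eWAT, Ccl11, Ccl8, Ccl12 and Ccl7 were detected in all 16 libraries. Relative to BAT, Cxcl14 (-3.98), Ccr10 (-3.47) and Cx3cl1 (-2.68) were also lower in liver.

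The comparison of housing temperatures in BAT moved more members than any other comparison within a tissue, and also more of all genes. Thermoneutral housing raised the monocyte attractant Ccl2, the neutrophil attractant Cxcl1 and the receptors Ccr2 and Cxcr4 in both genotypes, and lowered Ccl27a. In WT BAT, 13 of the 37 tested members passed the test, 12 higher and 1 lower, where 32.5% of all genes were called (15.9% higher and 16.7% lower). That WT total lies near the share of all genes, and the members differ from all genes in direction, with most calls higher. In KO BAT, 18 of 37 passed, 16 higher and 2 lower, where 15.2% of all genes were called (6.64% higher and 8.52% lower). The median log2 change over the 37 members was 1.34 in WT and 1.84 in KO, beside 0.11 and 0.04 over all genes tested. Groups did not overlap for 14 members in WT (27.2% of all genes) and for 23 in KO (21.3% of all genes). Since members passed the filter partly through the warm libraries, where many are higher, these counts describe the members tested and not all 59. Without KO TN 2 and KO TN 5, the BAT libraries with the most hepatocyte transcripts, 10 members were called in KO, with 2 KO TN libraries left, and Ccl5, Ccl9 and Cxcl1 were among those no longer called (adjusted p = 0.102, 0.0573 and 0.0579).

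Called in both genotypes were 12 members, which is 12 of the 13 called in WT and 12 of the 18 called in KO. They included the ligands Ccl2, Ccl6, Ccl9, Ccl11, Ccl27a, Cx3cl1, Cxcl1, Cxcl10 and Cxcl16 and the receptors Ccr2 and Cxcr4, each moving in the same direction in both. Ccl22 was called in WT alone, and Ccl5, Ccl7, Ccl8, Cxcl2, Cxcl9 and Cxcl12 in KO alone. The difference between the 2 responses, tested as an interaction, was called for no member, and for 0.0% of all genes by edgeR. There 6 of 37 members and 1833 of 18032 genes had an unadjusted p under 0.05, and DESeq2 called no member. The 2 lowest p were those of Cxcl12 (log2 difference -1.62, adjusted p = 0.443) and Ccl7 (2.47, adjusted p = 0.443).

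Cxcl1, which draws neutrophils through Cxcr2, had the largest change in WT BAT. Its levels were 0.237, 0.402, 0.240 and 0.208 CPM at RT and 4.31, 7.71, 4.83 and 5.22 CPM at TN. All 4 warm libraries lay above all 4 cooler ones, and the log2 change was 4.31 (SE 0.54, adjusted p = 2.17e-05). In KO BAT the RT libraries held 1.22, 0.204, 0.367 and 0.365 CPM and the TN libraries 3.77, 1.41, 2.40 and 3.72 CPM, again without overlap, for a change of 2.38 (SE 0.49, adjusted p = 0.00305). The high RT value was that of KO RT 9, in which hepatocyte transcripts summed to 678 CPM, the highest sum among the KO RT libraries, and their part was not tested. Without that library and KO TN 2, Cxcl1 stayed called in KO, while Ccl6, Ccl8, Cxcl2, Cxcl12 and Cxcr4 were no longer called there. Its neighbour Cxcl2, another Cxcr2 ligand, was lower in level: 0, 0, 0.367 and 0 CPM in KO at RT and 1.38, 0.441, 2.96 and 0.8999 CPM at TN. That change was 3.93 (SE 1.03, adjusted p = 0.0140, lost without KO TN 4 at an adjusted p of 0.0534) and in WT 1.92 (SE 0.91, adjusted p = 0.115). The receptor for both, Cxcr2, did not pass the filter in BAT, where its highest level was 0.465 CPM.

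The monocyte attractants Ccl2 and Ccl7 both bind Ccr2. Ccl2 stood at 1.02, 1.27, 1.88 and 1.72 CPM in WT at RT and at 4.63, 7.12, 9.38 and 5.25 CPM at TN. It rose by 2.17 in WT (SE 0.45, adjusted p = 0.00127) and by 2.72 in KO (SE 0.46, adjusted p = 0.000622), and neither pair of groups overlapped. Ccl7 in KO went from 0.272, 0.0681, 0.514 and 0.133 CPM at RT to 4.07, 1.43, 4.38 and 2.76 CPM at TN. The KO groups did not overlap and the change was 3.67 (SE 0.59, adjusted p = 0.000417). In WT the Ccl7 change was 1.20 (SE 0.52, adjusted p = 0.0863), from a higher RT level of 0.508 to 1.92 CPM. Ccr2 itself rose in both genotypes. Its WT libraries held 4.10, 6.76, 4.20 and 3.65 CPM at RT and 17.0, 22.6, 15.8 and 10.0 CPM at TN, and its KO libraries 1.97, 1.84, 3.23 and 2.65 CPM at RT and 10.8, 10.6, 11.7 and 17.7 CPM at TN. No warm library lay below a cooler one, and the log2 changes were 1.80 (SE 0.28, adjusted p = 0.000122) and 2.39 (SE 0.28, adjusted p = 2.4e-05).

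**Figure D2:**
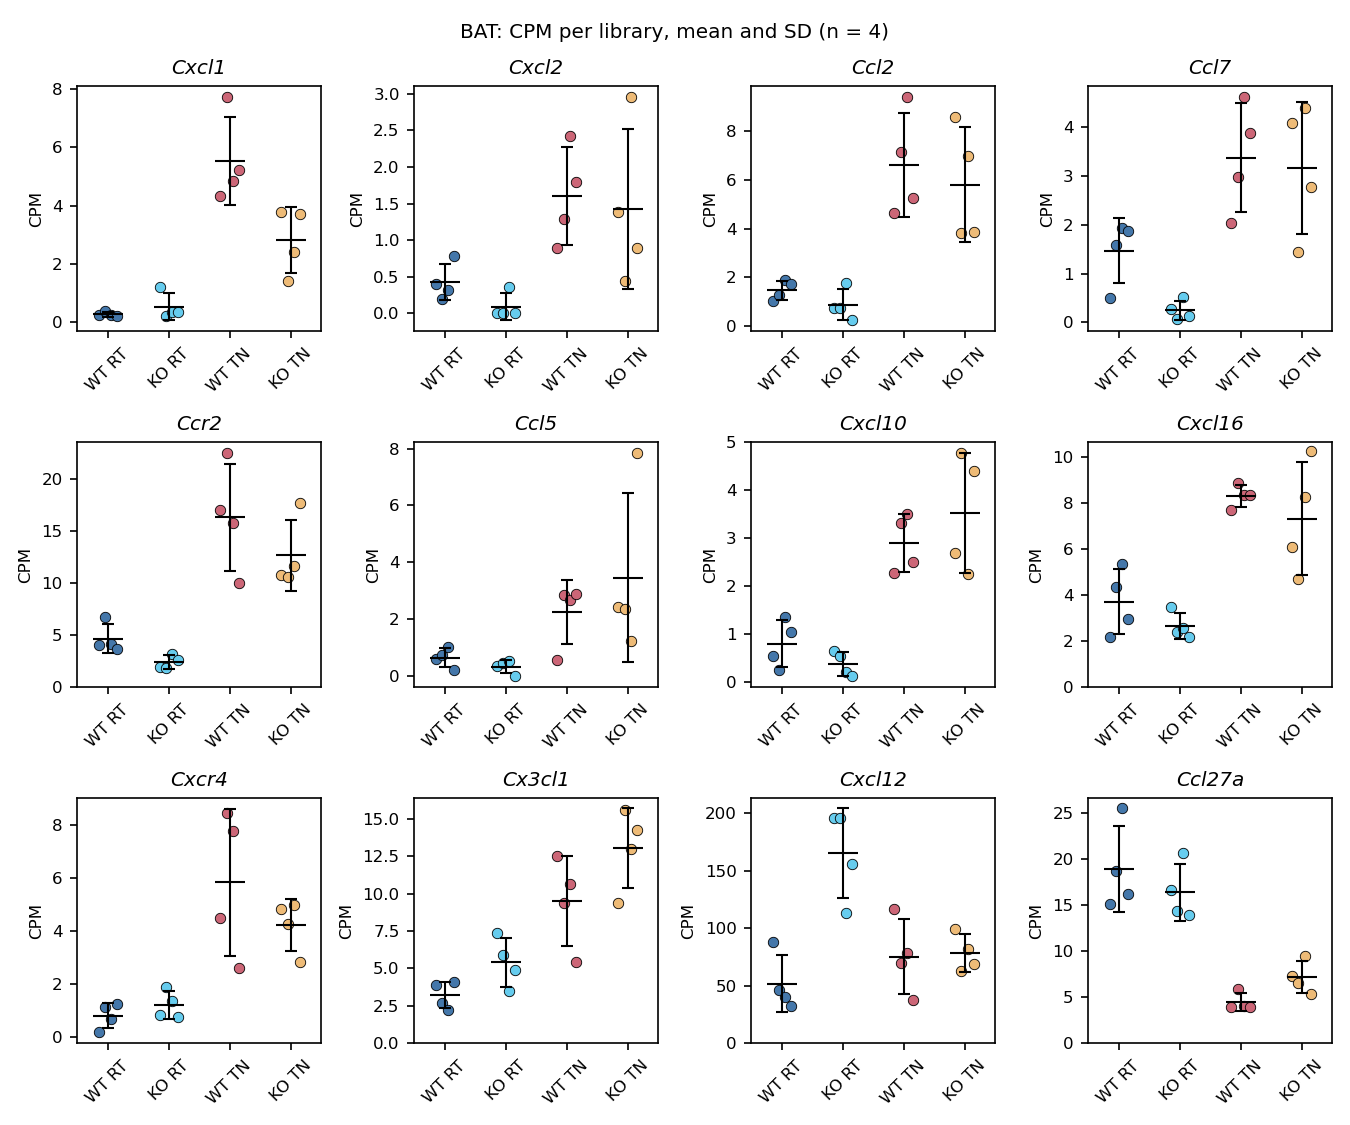
CPM of selected members in each BAT library (points) by genotype and housing, with the mean and SD of 4 libraries. Cxcl1, Ccl2 and Ccr2 separate warm from cooler housing in both genotypes, Ccl27a separates them in the opposite direction, and Cxcl12 is highest in KO mice at RT.

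The macrophage ligands Ccl9 and Ccl6 rose in both genotypes. Ccl9 rose by 1.95 in WT (adjusted p = 0.00352) and 2.32 in KO (adjusted p = 0.00305), and Ccl6 by 1.58 (adjusted p = 0.0188) and 1.82 (adjusted p = 0.0182). Ccl6 is the less stable of the pair: its adjusted p ranged up to 0.058 in WT and 0.178 in KO over the alternatives tried, and the call was lost without WT RT 18 in WT and without KO RT 9 or KO RT 10 in KO. Ccl11, the ligand with the highest BAT level, had a smaller change, from 8.00, 12.7, 18.0 and 15.0 CPM to 18.6, 21.1, 23.3 and 18.8 CPM in WT. The change was 0.61 in WT (SE 0.22, adjusted p = 0.0421, up to 0.108 over the alternatives and lost without any 1 of 7 libraries) and 1.18 in KO (SE 0.22, adjusted p = 0.00162). Ccl22, a dendritic-cell ligand of Ccr4, rose by 2.99 in WT (adjusted p = 0.0399), but 1 library carried much of it. The WT TN libraries held 2.57, 1.24, 0.827 and 0.180 CPM, and without WT TN 1 the change was 2.33 with an adjusted p of 0.160. The call was also lost without any 1 of 6 other WT libraries.

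Ccl5, which draws T cells and monocytes, held 0.340, 0.443, 0.514 and 0 CPM in KO at RT and 2.43, 2.34, 1.23 and 7.84 CPM at TN. It rose by 3.41 in KO (SE 0.82, adjusted p = 0.00872). In WT the change was 1.78 (SE 0.76, adjusted p = 0.0833), and WT TN 1, at 0.571 CPM, lay among the RT libraries. Ccl8 rose by 2.94 in KO (adjusted p = 0.0264), with no level above 2.38 CPM, and the call was lost without KO RT 9, KO RT 10, KO RT 14, KO TN 2 or KO TN 5.

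The interferon-induced ligands of Cxcr3, a receptor of activated T cells, were Cxcl9 and Cxcl10 in BAT. Cxcl10 held 0.542, 0.268, 1.36 and 1.04 CPM in WT at RT and 2.28, 3.32, 3.52 and 2.52 CPM at TN. It rose by 1.86 in WT (SE 0.52, adjusted p = 0.0100) and 3.18 in KO (SE 0.55, adjusted p = 0.000732), with no overlap. Cxcl9 rose in KO by 1.17 (SE 0.35, adjusted p = 0.0332), where the groups overlapped, and in WT the change was 0.56 (adjusted p = 0.234). The KO call was lost without any 1 of KO RT 10, KO RT 14, KO RT 19, KO TN 2, KO TN 4 or KO TN 5, with an adjusted p of up to 0.225 over the alternatives. Cxcr3 had levels up to 1.29 CPM and its changes were 2.30 in WT (adjusted p = 0.154) and 2.63 in KO (adjusted p = 0.168). The gene Art3 overlaps Cxcl10 in the annotation and itself changed by 1.15 in KO BAT (adjusted p = 0.000215) and 0.43 in WT (adjusted p = 0.0570), and how reads in the overlap were assigned is not given in the sources used here.

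Both membrane-bound ligands rose. Cx3cl1 went from 3.86, 2.71, 2.24 and 4.07 CPM to 12.6, 9.36, 10.7 and 5.43 CPM in WT and from 7.40, 5.89, 3.52 and 4.88 CPM to 9.37, 15.6, 13.0 and 14.3 CPM in KO. Neither pair overlapped, and the changes were 1.56 (SE 0.29, adjusted p = 0.000522) and 1.27 (SE 0.28, adjusted p = 0.0051). Its receptor Cx3cr1, found on patrolling monocytes and resident macrophages, had changes of 0.84 in WT (adjusted p = 0.0606) and 0.98 in KO (adjusted p = 0.0559). Cxcl16, the ligand of Cxcr6, rose by 1.16 in WT (SE 0.29, adjusted p = 0.00488) and 1.46 in KO (SE 0.29, adjusted p = 0.00231). Zmynd15, which overlaps Cxcl16, also rose in WT BAT, from a mean of 0.479 to 1.86 CPM. Cxcr6 had changes of 1.81 in WT (adjusted p = 0.219) and 3.14 in KO (adjusted p = 0.0793).

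Cxcr4, the receptor of Cxcl12, and Cxcl12 itself moved in opposite directions in KO. Cxcr4 held 0.203, 1.14, 0.680 and 1.25 CPM in WT at RT and 4.49, 8.44, 7.78 and 2.61 CPM at TN, a rise of 2.84 (SE 0.50, adjusted p = 0.00037). In KO it rose by 1.79 (SE 0.48, adjusted p = 0.0157), a call that was lost without KO RT 19. Cxcl12 fell in KO BAT, from 195, 196, 113 and 156 CPM at RT to 99.6, 62.7, 82.2 and 68.8 CPM at TN. The KO groups did not overlap, and the change was -1.08 (SE 0.34, adjusted p = 0.0427). That call is weak, with an adjusted p of up to 0.161 over the alternatives, and it was lost without any 1 of 10 libraries. In WT the Cxcl12 change was 0.54 (SE 0.34, adjusted p = 0.23), from 88.0, 46.0, 40.1 and 32.4 CPM to 117, 69.3, 78.0 and 37.3 CPM, and those groups overlapped.

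Ccl27a, a ligand of Ccr10 best known from skin, was the member that fell in both genotypes. It held 15.1, 18.7, 25.6 and 16.3 CPM in WT at RT and 3.89, 5.91, 4.08 and 3.99 CPM at TN, and in KO 16.7, 14.3, 20.7 and 14.0 CPM at RT and 7.35, 6.504, 9.54 and 5.34 CPM at TN. All cooler libraries lay above all warm ones. The changes were -2.08 in WT (SE 0.23, adjusted p = 6.83e-06) and -1.19 in KO (SE 0.22, adjusted p = 0.00133), and both calls stood under every alternative tried. Ccl27a shares its position with Il11ra1, whose own changes were -0.38 in WT (adjusted p = 0.0897) and -0.01 in KO (adjusted p = 0.970), and it has a near-identical copy, Ccl27b, that did not pass the filter. Ccr10 had changes of -1.13 in WT (adjusted p = 0.0833) and -1.24 in KO (adjusted p = 0.0968), and the overlapping Cntnap1 fell by 0.63 in WT (adjusted p = 0.0285) and by 0.87 in KO (adjusted p = 0.00864).

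The remaining members fixed for naming had no call in BAT. Cxcl14, the ligand with the second highest BAT level, changed by -0.00 in WT and 0.40 in KO. Cxcl13, which draws B cells through Cxcr5, changed by 0.66 and 0.51, and Cxcr5 by -1.83 and -3.67 at levels of at most 1.70 CPM. Ccl21a changed by 1.12 and 2.34 and its receptor Ccr7, which guides dendritic and naive T cells, by 1.40 and 2.61. Ccl19, the other Ccr7 ligand, did not pass the filter in BAT.

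**Figure D3:**
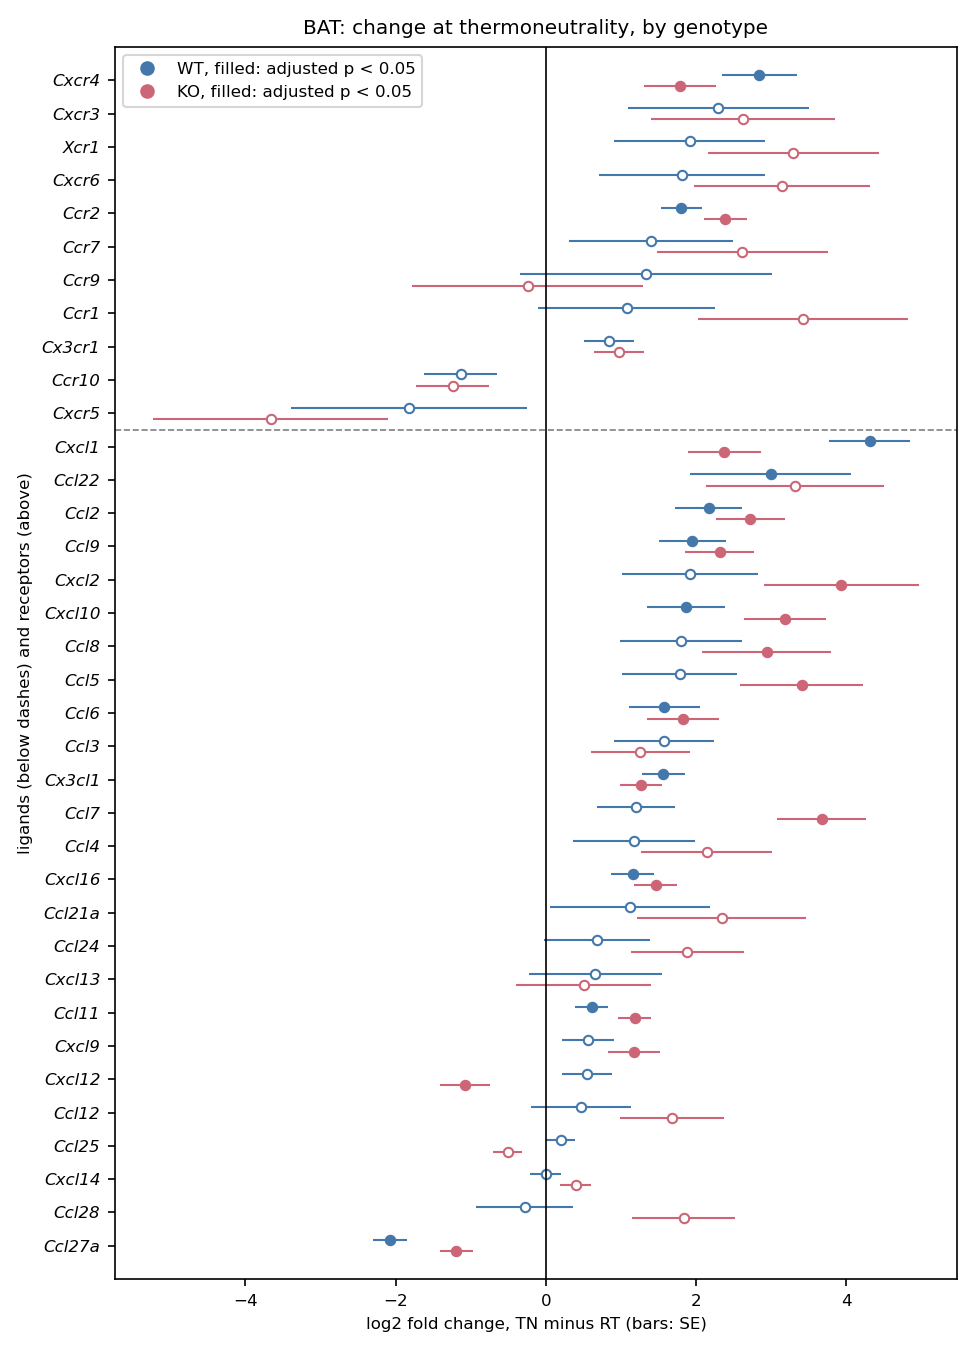
Log2 change from RT to TN in BAT for tested members, WT and KO side by side, with SE bars. Most points lie above 0 in both genotypes, Ccl27a lies below 0 in both, and Cxcl12 lies above 0 in WT and below 0 in KO.

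By role, the WT calls in BAT covered 5 higher and 1 lower of 16 CC ligands, 3 of 8 CXC ligands, the CX3C ligand and 3 of 12 receptors. The KO calls covered 7 higher and 1 lower of 16 CC ligands, 5 higher and 1 lower of 8 CXC ligands, the CX3C ligand and the same 3 receptors, Ccr2 and Cxcr4 among them. By position, the cluster on chr11:82035571-82305690 (GRCm38), with Ccl1, Ccl2, Ccl7, Ccl8, Ccl11 and Ccl12, had 5 members tested, of which 2 rose in WT and 4 in KO. The second cluster on that chromosome, chr11:83525778-83664683, holds Ccl3, Ccl4, Ccl5, Ccl6 and Ccl9, of which 2 rose in WT and 3 in KO. The CXC cluster at chr5:90759360-90905938 had Cxcl1 and Cxcl2 tested, with 1 rising in WT and both in KO. Of the 11 members higher in both genotypes, 7 had a promoter window, 2 of them with a kB-like match (Cxcl1 and Cxcl10).

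Genes of the wider pathway were counted from lists that, like the members, were chosen with earlier results of these data known. Of all genes tested, 15.9% rose and 16.7% fell in WT BAT, and 6.64% rose and 8.52% fell in KO. Of 20 genes that signal below the receptors, 11 rose in WT BAT and 5 in KO. Among them were the leukocyte integrin subunits Itgb2 (2.51 and 1.94) and Itgal (3.02 and 2.02), which attach leukocytes to endothelium. Of 15 tested inducers of chemokine transcription, 10 rose in WT and 6 in KO. Jun, a subunit of AP-1, rose by 2.13 and 2.00, and the macrophage growth factor Csf1 by 1.44 and 0.73. Il1b (2.92) and Tnf (3.32), cytokines that induce many chemokines, rose in KO. Of 11 tested decoy receptors and other chemokines, Mif fell in WT by 1.00 and Pf4 rose in KO by 1.38.

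Markers of other cell types moved with housing in BAT. All 12 macrophage markers rose in both genotypes, with a summed level of 63.4 to 167 CPM in WT and 76.6 to 93.3 CPM in KO at RT, and of 291 to 664 CPM in WT and 245 to 371 CPM in KO at TN. Fibroblast markers rose for 3 of 5 genes in both, endothelial markers for 4 of 5 in WT, dendritic cell markers for 2 of 4 and monocyte markers for 1 of 4 in both. Brown adipocyte markers fell for 3 of 4 in both. Beside these, 15.9% of all genes rose in WT and 6.64% in KO, and 16.7% and 8.52% fell. Neutrophil, T cell and B cell markers (4, 8 and 7 tested) had no call in either genotype. Their median changes were 0.93, 1.58 and 1.46 in WT and -0.67, 1.73 and -1.11 in KO. In bulk tissue, more cells of a type and more RNA per cell cannot be told apart, and the part of these cell types in the chemokine changes was not tested.

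Genotype gave no call among the BAT members. The 4 comparisons within a tissue share their groups in pairs, so their values are set side by side and not counted as separate support. At RT, none of 37 members was called by edgeR, where 0.0887% of all genes were called. An unadjusted p under 0.05 was found for 13 members and for 3507 of 18032 genes, and DESeq2 called 6 members. The median log2 difference, KO minus WT, was -0.74 over the members and 0.00 over all genes. Cxcl12 was the member with the lowest p: WT libraries held 88.0, 46.0, 40.1 and 32.4 CPM and KO libraries 195, 196, 113 and 156 CPM. All KO libraries lay above all WT libraries, with a log2 difference of 1.68 (SE 0.34, adjusted p = 0.0673). This comparison shares its KO RT libraries with the housing comparison in KO, in which Cxcl12 was called lower. Endothelial markers summed to 130 to 431 CPM in WT and 377 to 794 CPM in KO at RT, and their part in the Cxcl12 values was not tested. Ccl7 had a difference of -2.56 (SE 0.58, adjusted p = 0.0748) and Ccr2 of -0.95 (SE 0.28, adjusted p = 0.111), the second without overlap. Leaving out WT RT 12 raised the number of calls to 7. At TN, no member was called, where 0.0% of all genes were called. An unadjusted p under 0.05 was found for 5 members and for 945 of 18032 genes, and DESeq2 called no member. The lowest p were those of Ccl27a (0.68, adjusted p = 0.657) and Ccl25, a thymus and gut ligand of Ccr9 (-0.52, adjusted p = 0.837).

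In liver at TN, Cxcl16, which draws Cxcr6-bearing T cells, and the macrophage ligand Ccl9 were higher in KO. They were 2 of 37 members, where 3.18% of all genes were called and 1.34% were higher. Cxcl16 levels were 7.07, 9.78, 8.97 and 9.66 CPM in WT and 11.5, 23.1, 25.4 and 15.5 CPM in KO. The groups did not overlap, and the difference was 1.09 (SE 0.22, adjusted p = 0.0107), called under every alternative tried with an adjusted p of at most 0.0499. Zmynd15, which overlaps Cxcl16, had means of 8.91 and 14.2 CPM and a difference of 0.67 (adjusted p = 0.191). Ccl9 levels were 46.7, 32.6, 43.1 and 32.8 CPM in WT and 51.0, 78.2, 65.5 and 75.4 CPM in KO. The difference was 0.80 (SE 0.19, adjusted p = 0.0229), and it was lost without KO TN 22, KO TN 4, WT TN 24 or WT TN 6, with an adjusted p of up to 0.0909.

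Some ligands were high in 2 of the 4 KO livers at TN. Cxcl9 held 13.0, 57.7, 138 and 11.2 CPM and Ccl5 1.59, 9.35, 25.8 and 1.20 CPM, so libraries KO TN 4 and KO TN 5 lay far above the others, and the 2 highest Cxcl16 levels, 23.1 and 25.4 CPM, were also in these libraries. The same libraries had the most macrophage transcripts, 628 and 751 CPM against 328 and 348 CPM in the other KO TN livers and at most 289 CPM in WT TN, and the most T cell transcripts, 17.8 and 36.5 CPM. The part of these cells in the levels of these ligands, Cxcl16 included, was not tested. Cxcl13 differed by 2.58 (SE 0.81, adjusted p = 0.0823), Ccl6 by 1.01 (adjusted p = 0.0808) and Cxcl9 by 1.95 (adjusted p = 0.131). The median over the 37 members was 0.87 beside 0.05 over all genes. Some members passed the filter partly through the KO TN livers, where they are higher, so this median describes the members tested. Of the pathway lists, Cmklr1 (1.17), Arrb2 (0.63), Irf1 (1.04) and Irf5 (1.02) were called higher, where 1.34% of all genes were.

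**Figure D4:**
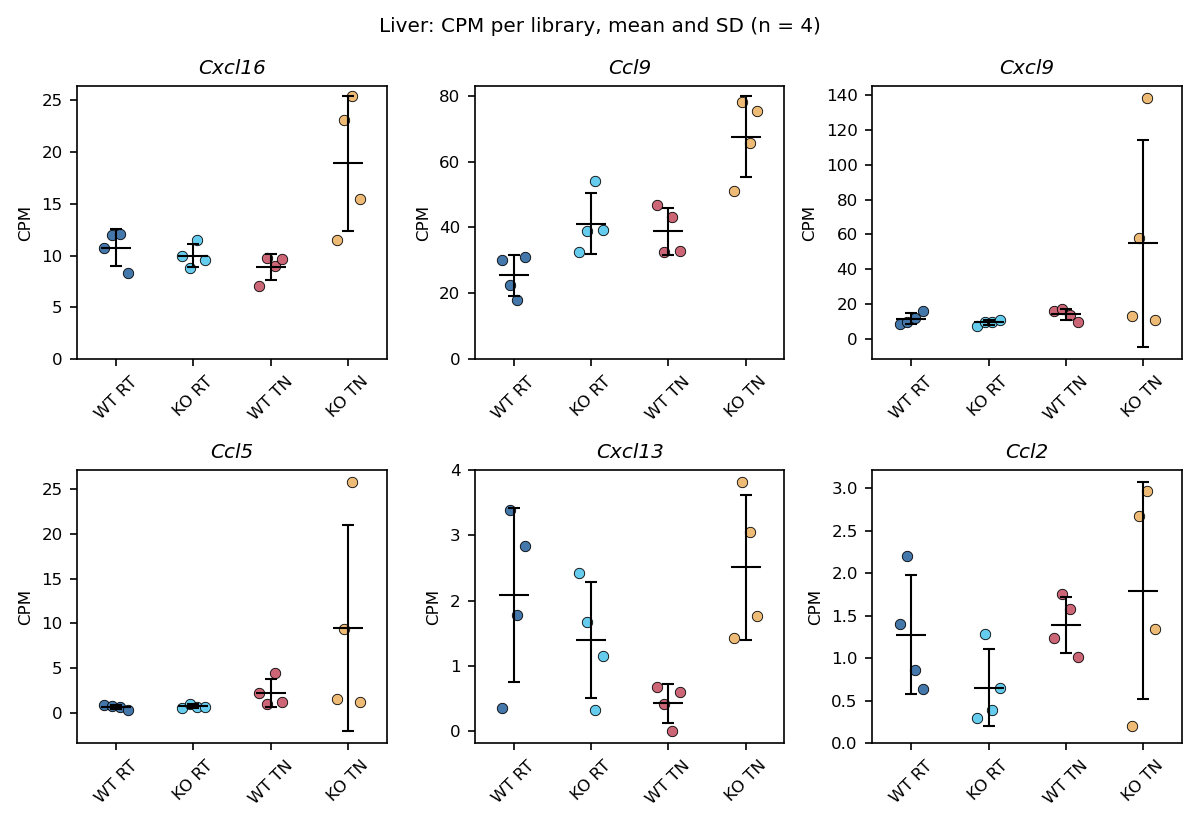
CPM of Cxcl16, Ccl9, Cxcl9, Ccl5, Cxcl13 and Ccl2 in each liver library (points) by genotype and housing, with the mean and SD of 4 libraries. Cxcl16 and Ccl9 in KO mice at TN lie above all WT TN libraries, and for Cxcl9 and Ccl5 the KO TN group is spread by 2 libraries.

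At RT, no liver member was called by edgeR, where 0.0853% of all genes were called. An unadjusted p under 0.05 was found for 7 of 37 members and for 1799 of 17594 genes, and DESeq2 called no member. Ccl9 had the lowest p, at 30.2, 22.7, 17.9 and 31.0 CPM in WT and 32.4, 38.8, 54.1 and 39.3 CPM in KO, a difference of 0.69 (SE 0.19, adjusted p = 0.153) without overlap. Ccl27a differed by 0.89 (SE 0.28, adjusted p = 0.236), and its overlapping gene Il11ra1 by 0.61 (adjusted p = 0.153). The change of the genotype difference with housing was called for no member (0.0% of all genes). There 10 of 37 members and 1290 of 17594 genes had an unadjusted p under 0.05, and DESeq2 called no member. The lowest p were those of Cxcl16 (1.20, adjusted p = 0.443) and Cxcl13 (3.15, adjusted p = 0.514).

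No liver member was called for housing in either genotype. In WT, 0.0227% of all genes were called, and DESeq2 called no member. An unadjusted p under 0.05 was found for 5 of 37 members and for 1276 of 17594 genes. Ccl19 was at 0 in all 4 WT RT livers and at 0, 1.13, 0.221 and 0.299 CPM at TN (adjusted p = 0.400), so that 1 library held most of it. Reads of Ccl19 may be shared with its pseudogenes. Ccl9 changed by 0.61 (adjusted p = 0.400). In KO, 0.114% of all genes were called, and DESeq2 called 6 members. An unadjusted p under 0.05 was found for 14 of 37 members and for 1849 of 17594 genes. The median over members was 1.16 in KO and 0.28 in WT, beside 0.01 over all genes in each. In KO, 34 of 37 members were positive. Some members passed the filter partly through the KO TN livers, where they are higher, so these medians and this count describe the members tested. In KO livers, a shift of the members as a set was not tested. Cxcl16 changed by 0.92 (SE 0.22, adjusted p = 0.0813) and Ccl5 by 3.71 (SE 0.84, adjusted p = 0.0863), both without overlap, and this comparison shares its KO TN libraries with the genotype comparison at TN. Cxcl12, the main liver ligand, ranged from 228 to 374 CPM over all 16 libraries, and its differences lay between -0.06 and 0.25 in the 4 comparisons. Cxcl1 differed by 0.47 to 0.72, and Cxcl10 by -0.88 to 1.57, none called. Ccl2, Cx3cl1, Cx3cr1, Cxcr4, Cxcr6, Cxcr3, Cxcr5, Ccl21a, Ccr7, Cxcl2, Cxcr2 and Cxcl14 had no liver library above 7.005 CPM, and none was called. Ccr2 reached 11.7 CPM in KO TN 5 and differed by 2.08 between housing conditions in KO (adjusted p = 0.175).

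In eWAT, the monocyte attractant Ccl7 was lower in KO at RT. The calls covered 2 of 42 members tested, both lower in KO, where 4.34% of all genes were called and 3.13% were lower. That total lies near the share of all genes, so it is not a result about the members as a set. Ccl7 levels were 9.81, 9.02, 9.40 and 14.7 CPM in WT and 3.02, 4.53, 7.65 and 5.12 CPM in KO. The groups did not overlap, and the difference was -1.08 (SE 0.28, adjusted p = 0.0373). The call is fragile, with an adjusted p of up to 0.159 over the alternatives, and no member was called when only the 8 libraries compared were fitted.

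Ccl9 differed by -0.86 (SE 0.24, adjusted p = 0.0531) and Ccl8 by -1.99 (SE 0.57, adjusted p = 0.0704), both without overlap. Ccl2, at -0.998 (adjusted p = 0.114), and Ccr2, at -0.46 (adjusted p = 0.225), overlapped. Ccl21a went the other way, with 7.58, 11.1, 1.11 and 19.4 CPM in WT and 38.6, 45.7, 25.6 and 34.7 CPM in KO, but its difference of 1.88 (SE 1.12) had an adjusted p of 0.439, and its reads may be split with Ccl21b. Macrophage markers summed to 1084 to 1548 CPM in WT and 822 to 1086 CPM in KO, with 4 of 12 called lower, and hepatocyte transcripts summed to 1262 to 2913 CPM in WT and 2448 to 6713 CPM in KO. The highest WT value of Ccl7, 14.7 CPM, was that of WT RT 18, the library with 792 CPM of epididymis transcripts. The part of any of these transcripts in the Ccl7 values was not tested. The pathway lists held 2 calls, both lower in KO: Arrb1 (-0.63) and Dock2 (-0.81), where 3.13% of all genes were lower.

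**Figure D5:**
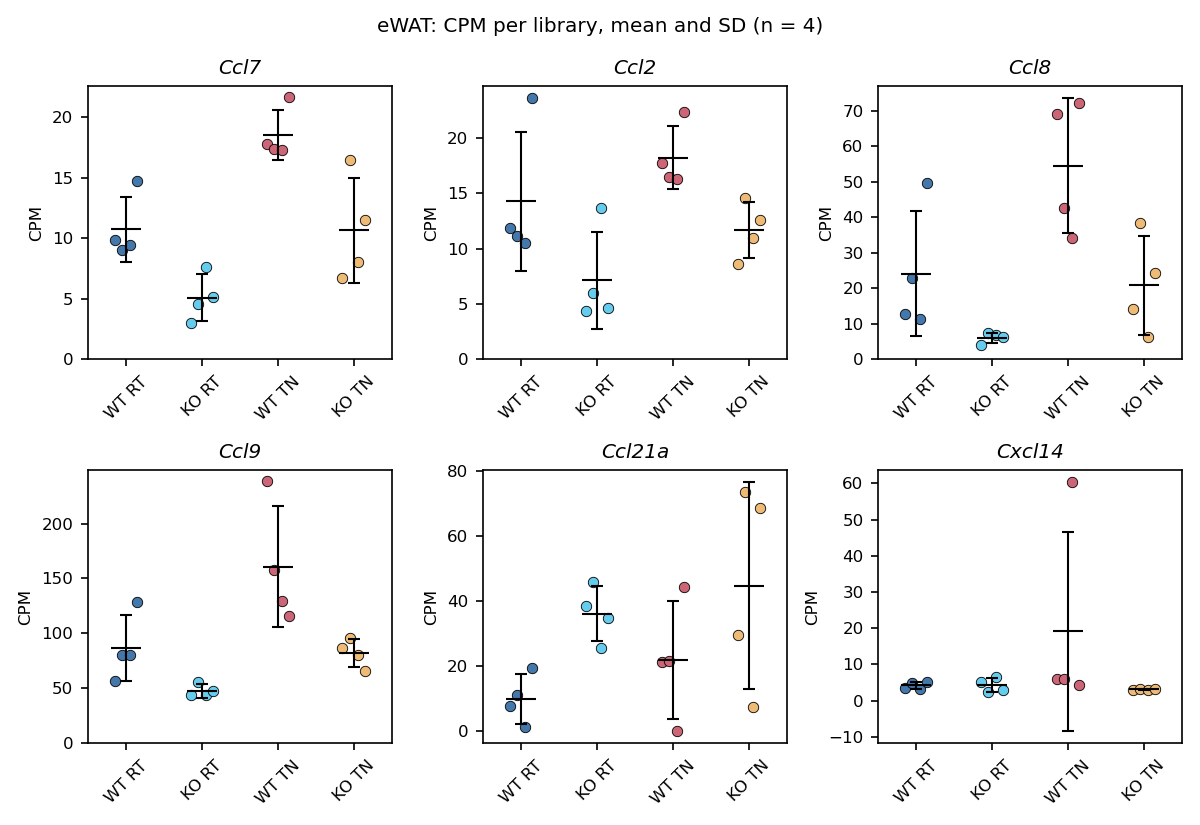
CPM of Ccl7, Ccl2, Ccl8, Ccl9, Ccl21a and Cxcl14 in each eWAT library (points) by genotype and housing, with the mean and SD of 4 libraries. Ccl7 is lower in KO than in WT at RT without overlap, and 1 WT TN library holds 60.3 CPM of Cxcl14.

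At TN, no eWAT member was called for genotype by edgeR, where 0.586% of all genes were called. An unadjusted p under 0.05 was found for 13 of 42 members and for 2603 of 18933 genes, and DESeq2 called 2 members. The lowest p was that of Ccl9, at 239, 158, 129 and 116 CPM in WT and 87.1, 95.6, 80.8 and 65.8 CPM in KO (-0.96, SE 0.24, adjusted p = 0.0773), and its groups did not overlap. The median over members was -0.55 at TN and -0.29 at RT, beside 0.01 and -0.00 over all genes. Macrophage markers at TN summed to 1665 to 2767 CPM in WT and 1278 to 1509 CPM in KO. Cxcl14 differed by -2.63 (adjusted p = 0.121), where WT TN 8 held 60.3 CPM against 4.28 to 5.94 CPM in the other WT TN libraries. That library also had no Ccl21a read, and its fibroblast markers summed to 3230 CPM against at most 1160 CPM in the other WT TN libraries.

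No eWAT member was called for housing by edgeR. In WT, 0.0% of all genes were called, and DESeq2 called 1 member. An unadjusted p under 0.05 was found for 12 of 42 members and for 1325 of 18933 genes. Ccl9 changed by 0.89 (SE 0.24, adjusted p = 0.339) and Ccl5 by 1.22 (SE 0.34, adjusted p = 0.349), the latter from 2.42, 3.00, 4.62 and 4.61 CPM to 10.3, 6.58, 7.77 and 9.57 CPM without overlap. In KO, 1.74% of all genes were called, and DESeq2 called 6 members. An unadjusted p under 0.05 was found for 9 of 42 members and for 3311 of 18933 genes. Ccl7 changed by 1.07 (SE 0.28, adjusted p = 0.0596). The interaction was called for no member and 0.0% of all genes, and DESeq2 called no member. An unadjusted p under 0.05 was found for 3 of 42 members and for 1440 of 18933 genes. The lowest p were those of Ccl5 (-1.24, adjusted p = 0.625) and Cxcl14 (-2.65, adjusted p = 0.631).

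Ccl6, the ligand with the highest eWAT level, ranged from 56.1 to 174 CPM at RT and from 94.1 to 291 CPM at TN. Its genotype differences were -0.68 at RT (adjusted p = 0.176) and -0.70 at TN (adjusted p = 0.247), and its housing changes 0.84 in WT and 0.82 in KO, none called. Cxcl12 lay between 47.99 and 150 CPM and Cxcr4 between 1.97 and 15.2 CPM over the 16 libraries, with overlap in each comparison. Cxcl16 changed with housing by 0.66 in WT (adjusted p = 0.367), without overlap, and by 0.31 in KO (adjusted p = 0.435). Cxcl13, the B cell attractant, was spread within groups, from 0.120 to 9.78 CPM in WT at RT alone. Cx3cl1, Cx3cr1, Cxcr6, Cxcl10, Cxcr3, Cxcr5, Ccl19, Ccr7, Cxcl1 and Cxcl2 had no eWAT library above 6.93 CPM, and none was called in any comparison there. Cxcr2 did not pass the filter in eWAT.

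Whether an effect differed between the 3 tissues was tested directly, over 45 members and all 48 libraries. The genotype effect at RT differed for 3 members (2.06% of all genes): Cxcl12 (adjusted p = 0.00692), Ccl9 (adjusted p = 0.0166) and Ccl7 (adjusted p = 0.0176). Ccl9 was positive in liver (0.69) and negative in BAT (-1.50) and eWAT (-0.86), and Cxcl12 was 1.68 in BAT, 0.25 in liver and -0.32 in eWAT. Ccl7 was -2.56 in BAT, and in eWAT its RT means were 10.7 CPM in WT and 5.08 CPM in KO. In liver, Ccl7 had no read in any of the 4 WT RT libraries and a KO RT mean of 0.228 CPM. Its liver difference therefore lies at the floor and has no firm size. Cxcl12 was called under every alternative tried (adjusted p of at most 0.0490). Ccl9 and Ccl7 lost their calls with the replicate number as a block (adjusted p = 0.174 and 0.176), both without replicate 15 or 18, Ccl9 also without replicate 10 and Ccl7 without replicate 19. At TN it differed for 4 members (0.904% of all genes), among them Cxcl16 (adjusted p = 0.0245), Ccl9 (adjusted p = 0.0334) and Ccl25 (adjusted p = 0.0441). The Cxcl16 difference was 1.09 in liver, -0.18 in BAT and -0.47 for eWAT. None of the calls at TN stood under every alternative: with the block the adjusted p was 0.155 for Cxcl16, 0.351 for Ccl9 and 0.326 for Ccl25, and each was also lost without replicate 3, 4, 5, 6 or 7.

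The housing effect in WT differed between tissues for 6 of 45 members, which lies near the share of all genes (15.0%). They were Ccl27a (adjusted p = 0.000533), Cxcl1 (adjusted p = 0.00149), Cxcl16 (adjusted p = 0.00757), Cxcr4 (adjusted p = 0.0159), Cxcl10 (adjusted p = 0.0408) and Cxcl14 (adjusted p = 0.0454). Cxcl1 changed by 4.31 in BAT, 0.72 in liver and 0.50 in eWAT, and Cxcr4 by 2.84, 1.94 and 0.17. Ccl27a changed by -2.08 in BAT and 0.28 in liver. Ccl27a, Cxcl1 and Cxcl16 were called under every alternative, while the adjusted p reached 0.0774 for Cxcr4 (lost without replicate 6, 7 or 12 or with the block), 0.192 for Cxcl10 (lost without any 1 of 8 replicate numbers) and 0.877 for Cxcl14. Cxcl14 had an eWAT change of 2.18 that rests on WT TN 8, at 60.3 CPM, and without replicate 8 its adjusted p was 0.801. In KO the housing effect differed for 3 members (4.06% of all genes): Cxcl9 (adjusted p = 0.0132), Ccl5 (adjusted p = 0.0211) and Ccl9 (adjusted p = 0.0488). Ccl5 changed by 3.41 in BAT and 3.71 in liver and by -0.02 in eWAT. None of these calls stood under every alternative. The adjusted p reached 0.0828 for Cxcl9 (lost without replicate 4 or 10), 0.112 for Ccl5 (lost without replicate 3, 4, 5, 10, 16 or 21 or with the block) and 0.340 for Ccl9, which was lost under 20 of 27 alternatives.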

How the data were processed

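Total RNA from frozen liver, BAT and eWAT was extracted with Maxwell RSC kits and made into mRNA libraries with NEBNext Ultra kits, sequenced as read pairs on an Illumina NovaSeq instrument, per the labels' protocols. Per the submitters' processing notes, reads went through fastp, STAR 2.6.1d and featureCounts 1.5.0-p3 on GRCm38 (mm10). The gene annotation and the strand setting are not given in the sources used here, so reads of overlapping genes, near-identical copies (Ccl21a and Ccl21b, Ccl19 and its pseudogenes, Ccl27a and Ccl27b) and antisense genes cannot be told apart. The authors deposited whole-number counts for 56748 Ensembl genes per library, with no normalization, and 52073 of these (91.76%) matched a symbol in the reference gene names.

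The counts were fitted in edgeR 4.0.16 (R 4.3.3) with TMM scaling, filterByExpr (minimum count 10) and the robust quasi-likelihood test, on all 16 libraries of a tissue, or on all 48 for tissues. Tested were 17594 genes in liver, 18032 in BAT, 18933 in eWAT and 21910 over all tissues. All tests were two-sided. Called means a Benjamini-Hochberg adjusted p under 0.05 over all genes tested, and log2 changes are edgeR's, with SE as the change divided by the square root of F. CPM used TMM library sizes within the tissue. TPM used exon lengths from GENCODE vM21, and promoters came from RefSeq. Marker levels are sums of CPM that leave out the members. Replicate SDs are over n = 4. The test was run on simulated counts with less spread between libraries than these data hold, and with changes only in genes of higher counts. That check therefore does not cover the spread seen here or the members at low counts.

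The values of 1 member are not reported here, though it stays in the counts and medians over members. Members, gene lists and named genes were chosen with earlier results of these data known. The named genes were a fixed list of 23 members, called members up to 6 per direction in each comparison, the 2 lowest p where none was called, and for tissues up to 5 per direction with a mean of at least 1 CPM. Chosen after their values were seen were the liver ligand Cxcl9, and Ccl8, Ccl11, Ccl12, Ccl27b and Ccr10 where they fall outside that rule. Alternatives were RLE scaling, other filters, DESeq2 1.42.0, the 8 compared libraries alone, the replicate number as a block and leaving out each library. Depth ran from 23.7 M to 43.7 M counts.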

Additional observations from a re-analysis of the deposited data

Results flagged for a closer look

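Among 216 groups of 4 libraries tested over the named members, 18 held a library far from the other 3 (8.33%, where chance gives about 1 in 20). In liver, Cxcl1 was low in KO RT 16 at 3.99 CPM (others 13.7 to 15.6), Cxcl12 high in KO TN 5 at 357.5 CPM (294 to 303), and Cxcl14 high in WT RT 15 at 2.05 CPM (1.56 to 1.61) and in WT TN 7 at 3.73 CPM (1.53 to 1.72). In BAT, Ccl27a was high in WT TN 6 at 5.91 CPM (3.89 to 4.08), Ccl5 low in WT TN 1 at 0.571 CPM (2.69 to 2.88) and Ccr2 high in KO TN 5 at 17.7 CPM (10.6 to 11.7). In eWAT library WT RT 18, which carried epididymis transcripts, Ccl2 was high at 23.7 CPM (10.5 to 11.9), Ccl7 high at 14.7 CPM (9.02 to 9.81) and Cxcr6 low at 0.528 CPM (1.44 to 1.58). In eWAT library WT TN 8, Cxcl14 was high at 60.3 CPM (4.28 to 5.94) and Cx3cr1 low at 1.68 CPM (6.22 to 6.93). Also in eWAT, Ccl27a was high in WT TN 7 at 5.78 CPM (2.91 to 3.27), Ccl5 high in KO TN 5 at 5.56 CPM (3.73 to 4.00), Ccl7 high in WT TN 23 at 21.6 CPM (17.3 to 17.8), Ccr2 low in KO RT 19 at 35.6 CPM (45.8 to 46.8), Cxcl16 high in KO TN 4 at 15.4 CPM (11.7 to 12.0) and Cxcr3 high in WT RT 12 at 1.69 CPM (0.931 to 1.05).

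An effect that differed between the 3 tissues, by edgeR's F test with adjusted p-values, is given for 15 cases. For the genotype effect at RT the members were Cxcl12 (adjusted p = 0.00692), Ccl9 (adjusted p = 0.0166) and Ccl7 (adjusted p = 0.0176). For the genotype effect at TN they were Cxcl16 (adjusted p = 0.0245), Ccl9 (adjusted p = 0.0334) and Ccl25 (adjusted p = 0.0441). For the housing effect in WT they were Ccl27a (adjusted p = 0.000533), Cxcl1 (adjusted p = 0.00149), Cxcl16 (adjusted p = 0.00757), Cxcr4 (adjusted p = 0.0159), Cxcl10 (adjusted p = 0.0408) and Cxcl14 (adjusted p = 0.0454). For the housing effect in KO they were Cxcl9 (adjusted p = 0.0132), Ccl5 (adjusted p = 0.0211) and Ccl9 (adjusted p = 0.0488).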

How the results depend on the processing

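Over the alternatives, no named result changed direction. Of the single-member values, 2315 stayed on their side of the threshold, 194 lost a call and 23 gained one. Of 13 members called for housing in WT BAT, 10 were called under every alternative (Ccl6, Ccl11 and Ccl22 were not), and of 18 in KO BAT, 8 (Ccl2, Ccl7, Ccl11, Ccl27a, Ccr2, Cx3cl1, Cxcl10 and Cxcl16). Some BAT libraries were left out after seeing the data. Without the KO libraries with the most hepatocyte transcripts at each temperature (KO RT 9 and KO TN 2), 14 members were called in WT and 14 in KO. Without KO TN 2 and KO TN 5, which have the most of all BAT libraries, 13 were called in WT and 10 in KO. DESeq2 called more members than edgeR: 18 and 25 for housing in WT and KO BAT, 8 in liver for genotype at TN, 6 in liver for housing in KO, 6 in BAT for genotype at RT, 5 and 2 in eWAT for genotype at RT and TN, and 1 and 6 in eWAT for housing in WT and KO. The share of all genes that DESeq2 called is not given here, so its counts are not read as results about the members. DESeq2 was not run for the effects between tissues. Without a filter, 1 member was called in liver for housing in KO, 1 in BAT for genotype at RT and 2 between tissues for genotype at TN. With the 8 compared libraries alone, 0 were called in eWAT for genotype at RT.

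Leaving out each library in turn gave 1 to 3 calls in liver for genotype at TN, 0 to 4 in liver for housing in KO, 0 to 7 in BAT for genotype at RT, 0 to 3 and 0 to 1 in eWAT for genotype at RT and TN, and 0 to 2 in eWAT for housing in KO. Leaving out each replicate number in all tissues gave 1 to 4 calls between tissues for genotype at RT, 0 to 6 for genotype at TN, 3 to 7 for housing in WT and 0 to 3 for housing in KO.

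Replicate numbers recur across tissues. Same-numbered libraries did not deviate together (35 pairs, median correlation of deviations 0.0196, from -0.405 to 0.174), and 23 of 70 checks matched a library best with its own number. Each check picked among the 4 libraries of the same genotype and housing in another tissue, where chance gives about 1 match in 4. With the replicate number as a block, 1 member was called between tissues for genotype at RT and 0 for genotype at TN. Levels below 1 CPM rest on few counts. This limits what can be seen for receptors such as Cxcr2, Cxcr5 and Ccr7, whose median lay below 1 CPM in each tissue.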
